A study of Mus musculus with 4 samples.

Results

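Hal, Urah, Upp1 and Slc52a3 are 3 enzymes of nutrient breakdown and a vitamin transporter that were lower on both arrays of mouse embryonic stem (ES) cells in which LIF had been replaced by a JAK inhibitor. The genes were taken by symbol from the array's probe annotation, which gives 6 probes for them (3 for Upp1 and 1 for each of the others), of 25697 probes and 16593 genes in all. They had been chosen for being lower with the JAK inhibitor in these data, so their JAK differences below are a description without a test. All 6 probes were detected on all 4 arrays at a detection p below 0.01.

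The cells were of the line OG2, whose Pou5f1 (Oct4) promoter drives a green fluorescent protein transgene. Gelatin-coated dishes without feeders and a KSR-based medium were used for all cultures. The medium held 1 µM PD0325901, which inhibits the kinase MEK and so blocks ERK, 3 µM CHIR99021, which inhibits GSK3, and 1000 U/ml of the cytokine LIF, which activates STAT3 through JAK kinases. For 12 h they were then given PD0325901 with LIF, 10 ng/ml FGF2 with LIF, PD0325901 with 1 µM JAK inhibitor I, or 10 ng/ml FGF2 with 1 µM JAK inhibitor I, and their RNA was hybridised to Illumina bead arrays, 1 per condition. LIF was replaced by the inhibitor, and PD0325901 by FGF2, so removing the former and adding the latter cannot be told apart, and the labels name no CHIR99021 after the switch.

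Each gene belongs to a pathway of its own. Hal, histidine ammonia-lyase, removes ammonia from histidine and gives urocanate, which Uroc1, Amdhd1 and Ftcd carry on to glutamate and a folate-bound one-carbon unit. Urah hydrolyses 5-hydroxyisourate, the product that urate oxidase (Uox) makes from urate, and Urad then gives allantoin. Upp1, uridine phosphorylase, splits uridine into uracil and ribose 1-phosphate, while Uck1 and Uck2 phosphorylate uridine for salvage. Slc52a3 carries riboflavin into the cell, where Rfk and Flad1 make from it the flavin cofactors FMN and FAD. Hal, Uox and Urah are best known from the liver. STAT3, the factor that LIF activates, binds DNA letters of the type TTCNNNGAA.

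Between 10626 and 10927 probes were detected per array, and the median bead standard error was 4.08% to 4.56% of the signal. All 8 ES cell markers listed for the check (Pou5f1, Sox2, Nanog, Zfp42, Dppa5a, Utf1, Tdgf1 and Esrrb) were detected on every array, and their summed normalized signal lay between 38140.1 and 39723. Tdgf1 was lower with the JAK inhibitor all the same (mean log2 difference −1.19, limma adjusted p = 0.0318), and Nanog stood at −0.40 (adjusted p = 0.415). Of 15 detected genes listed as LIF, JAK and STAT3 targets, 5 passed the limma test for the JAK switch, all lower, and the median of the 15 was −0.72, while Myc (0.06), Cebpb (0.11), Socs2 (−0.04) and Sall4 (−0.05) had means near 0. The JAK differences of Myc were −0.20 with PD0325901 and 0.32 with FGF2, and those of Cebpb −0.14 and 0.35. Socs3, the feedback inhibitor of JAK signalling, had a mean log2 difference of −4.34 between JAK inhibitor and LIF, and Klf4, a pluripotency factor gene downstream of STAT3, one of −1.60. Dusp6, an ERK phosphatase gene, had signals of 708 and 729.8 with PD0325901 against 2207 and 2545 with FGF2, and the early response gene Egr1 had a mean FGF2 difference of 3.77. Of 9 markers of liver and visceral endoderm measured, 1 to 2 were detected per array (summed normalized signal 44.0 to 70.1), and Alb, Afp, Apoa1, Apoa4, Ttr, Rbp4 and Foxa2 were not detected on any. Of 9 fibroblast markers, 5 to 6 were detected, with Col1a2, Col3a1 and Postn not detected on any array. Their summed normalized signal was 4670.4 in LIF against 3909 in the JAK inhibitor on PD0325901, and 3584 against 2689.8 on FGF2, so it was lower with the inhibitor in both backgrounds, as the 4 genes were. The single markers were less alike. Of 6 detected on at least 1 array, Dcn, Thy1 and Vim (3) were lower in both backgrounds and 0 were higher in both. Col1a1, Lum and Acta2 differed in sign between the backgrounds. The part of the fibroblast signal in the differences of the 4 genes was not tested. Of 8 primitive endoderm markers 4 to 5 were detected per array, and their summed signal (327 to 666) was also lower with the inhibitor in both backgrounds. Of 5 detected on at least 1 array, 3 were lower in both backgrounds and 1, Dab2, was higher in both. Lama1 had the lowest JAK differences of them, −1.53 with PD0325901 and −2.44 with FGF2. The part of these markers was not tested either.

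Promoter sequence from RefSeq (GRCm38.p6, 250 bases before to 50 after each gene's start) was at hand for Hal (1 window), Urah (2 overlapping windows) and Upp1 (3 windows). The 250 bases before the first listed start of each are shown, since these genes were lower together, with matches to TTCNNNGAA in capitals. The regions are chr7:140834888-140835137 for Urah, chr10:93488518-93488767 for Hal and chr11:9117758-9118007 for Upp1, all on the plus strand.
Urah: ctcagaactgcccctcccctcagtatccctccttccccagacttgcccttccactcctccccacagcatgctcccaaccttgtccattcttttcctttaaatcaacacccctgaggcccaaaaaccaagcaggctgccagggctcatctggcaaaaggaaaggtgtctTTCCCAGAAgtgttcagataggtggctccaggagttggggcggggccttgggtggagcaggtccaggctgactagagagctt
Hal: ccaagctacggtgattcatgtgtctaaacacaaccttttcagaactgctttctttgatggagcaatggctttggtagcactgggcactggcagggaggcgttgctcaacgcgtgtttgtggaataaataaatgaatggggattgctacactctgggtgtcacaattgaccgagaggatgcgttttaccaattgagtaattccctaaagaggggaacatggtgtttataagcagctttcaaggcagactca
Upp1: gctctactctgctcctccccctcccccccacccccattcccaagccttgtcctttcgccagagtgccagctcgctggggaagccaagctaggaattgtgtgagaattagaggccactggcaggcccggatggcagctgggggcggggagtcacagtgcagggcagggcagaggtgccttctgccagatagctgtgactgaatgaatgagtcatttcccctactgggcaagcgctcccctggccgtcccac
The Urah stretch holds 1 match, TTCCCAGAA, 82 to 74 bases before the start (chr7:140835056-140835064), and the same match lies in the other Urah window. The Hal and Upp1 windows hold none, and no window of the 3 genes holds the wider form TTCNNNNGAA. Both motifs read the same on either strand. Of 32851 such windows of all genes, 8.3% hold TTCNNNGAA and 6.95% hold TTCNNNNGAA. A match describes these letters only.

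For comparison, 49 bases around the match are shown for Socs3 (chr11:117969492-117969540, minus strand) and for Icam1 (chr9:21015878-21015926, plus strand), the adhesion molecule gene whose profile over the conditions was nearest to that of Hal.
Socs3: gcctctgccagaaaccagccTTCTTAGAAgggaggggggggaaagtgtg
Icam1: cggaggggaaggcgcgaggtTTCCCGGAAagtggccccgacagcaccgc
These hold TTCTTAGAA and TTCCCGGAA. Of the other genes named below for a profile like that of the 4, Sgk1 had a match in 1 of 6 windows, and Mras, Stat3, Hspb8, Spats1 and Tdgf1 had none in 1 window each.

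The levels of the 4 genes in each condition are given first as scanner signals (bead intensity, not background-subtracted) and then as background-corrected, quantile-normalized log2 values, each with the standard error over the beads of its array. A bead error covers technical spread within 1 array and not the spread between cultures, for which there is no replicate. In a bulk sample, fewer cells with a transcript and less of it per cell cannot be told apart.

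Hal (probe ILMN_2984332) was a dim probe. In LIF its signal was 164 ± 7.55 with PD0325901 and 161 ± 5.15 with FGF2, and in the JAK inhibitor it was 92.8 ± 3.73 and 104 ± 4.24. The latter pair lay just above the lowest signals detected on those arrays (87.6 and 99.2). On the normalized log2 scale the values were 6.76 ± 0.11, 6.53 ± 0.08, 5.15 ± 0.17 and 4.97 ± 0.18 in the same order. Both arrays with LIF were thus high and both with the inhibitor low. The genes were chosen on this contrast, so that order is a description here and for the genes below. The log2 difference between JAK inhibitor and LIF was −1.61 ± 0.20 (bead SE) with PD0325901 and −1.56 ± 0.19 with FGF2, or 3.05-fold and 2.94-fold lower.

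For so dim a probe the fold depended on the background taken off. The scanner signals themselves gave 1.76-fold and 1.55-fold, and the authors' deposited table, whose values for this probe lie below the scanner signals, gave 4.89-fold and 5.13-fold (93 and 77 intensity units with LIF against 19 and 15 with the inhibitor). The direction was the same in each of these, while the size of the Hal difference is uncertain.

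Urah (ILMN_2734924) had the largest mean JAK difference of the 4 in this processing (−1.78 against −1.58 for Hal), while in the authors' deposited table Hal had the larger (−2.33 against −1.91). In LIF the signal was 433 ± 23.8 with PD0325901 and 565 ± 24.6 with FGF2, against 165 ± 6.06 and 237 ± 11.2 in the JAK inhibitor. The normalized log2 values were 8.66 ± 0.09, 8.91 ± 0.07, 6.89 ± 0.08 and 7.13 ± 0.10. The arrays with LIF again stood above both arrays with the inhibitor, and within each pair the array with FGF2 was the higher. The JAK difference was −1.78 ± 0.13 (bead SE) with PD0325901 and −1.77 ± 0.12 with FGF2, or 3.43-fold and 3.42-fold lower, and the authors' deposited table gave 3.82-fold and 3.69-fold. The scanner signals themselves gave 2.62-fold and 2.38-fold.

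Upp1 was measured by 3 probes, which share their transcript and are not replicates. The brightest, ILMN_2959291, had signals in LIF of 4838 ± 174 with PD0325901 and 3933 ± 124 with FGF2, and in the JAK inhibitor of 2079 ± 117 and 1868 ± 86.1. Its normalized log2 values were 12.25 ± 0.05, 11.86 ± 0.05, 11.23 ± 0.08 and 10.57 ± 0.07. ILMN_2959292 gave 11.21, 10.66, 10.24 and 9.60, and ILMN_2959293 gave 10.10, 9.57, 8.77 and 8.27, each in that order of conditions. After normalization the 4 conditions stood in the same order on all 3 probes, highest with PD0325901 and LIF and lowest with FGF2 and the JAK inhibitor.

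With PD0325901 the JAK difference of Upp1 was −1.02 ± 0.10 (bead SE), −0.97 ± 0.11 and −1.33 ± 0.11 on the 3 probes, and with FGF2 it was −1.29 ± 0.08, −1.06 ± 0.12 and −1.30 ± 0.11. The brightest probe was thus 2.03-fold lower with PD0325901 and 2.45-fold lower with FGF2, and the other probes ranged from 1.96-fold to 2.52-fold. Upp1 lay far above background, and its mean JAK difference over both backgrounds varied little with the processing (−1.20 to −1.12). Its folds in each background varied more. The authors' deposited table gave 1.95-fold and 2.45-fold on the brightest probe. From the scanner signals that probe gave 2.33-fold with PD0325901 and 2.11-fold with FGF2, so the larger fold lay with PD0325901. ILMN_2959292 gave 2.20-fold and 1.75-fold there, and ILMN_2959293 2.57-fold and 1.94-fold. Between the extreme conditions, PD0325901 with LIF and FGF2 with the JAK inhibitor, Upp1 differed 3.19-fold, 3.05-fold and 3.57-fold on the 3 probes.

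Slc52a3 (ILMN_2675760), the transporter, had signals in LIF of 190.5 ± 8.91 with PD0325901 and 237 ± 9.82 with FGF2, and in the JAK inhibitor of 121 ± 5.26 and 144 ± 5.69. The normalized log2 values were 7.09 ± 0.10, 7.36 ± 0.08, 6.08 ± 0.13 and 5.99 ± 0.11. Both arrays with LIF were above both with the inhibitor after normalization, as on the scanner scale. The JAK difference was −1.02 ± 0.16 (bead SE) with PD0325901 and −1.38 ± 0.14 with FGF2, or 2.02-fold and 2.60-fold lower. The authors' deposited table gave 2.30-fold and 3.15-fold, and the scanner signals themselves 1.58-fold and 1.65-fold. The size of the Slc52a3 difference is thus uncertain too.

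**Figure D1:**
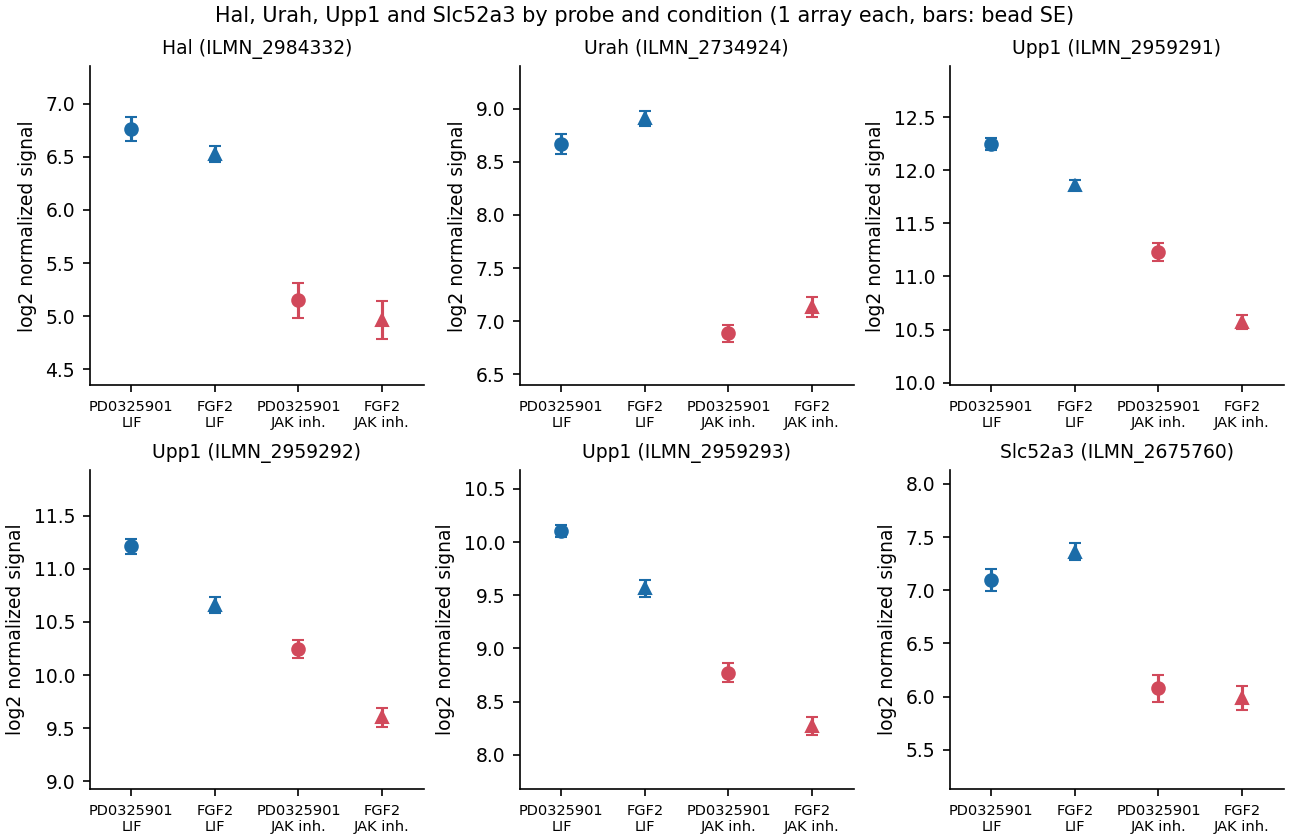
Background-corrected, quantile-normalized log2 signal of the 6 probes (y axis, each panel spanning 3 log2 units) in the 4 conditions, 1 array each, with bars for the bead standard error. Circles are PD0325901, triangles FGF2, blue LIF and red the JAK inhibitor. On every probe both blue points lie above both red points, the contrast on which the genes were chosen. For Upp1 the triangle of each colour lies below the circle of that colour.

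In both backgrounds all 4 genes lay 2-fold or more below their LIF level. Of 8341 genes detected on at least 1 array, 54 (0.647%) were so with PD0325901, 36 (0.432%) with FGF2 and 23 (0.276%) in both. Since these genes were chosen on that contrast, the count of 4 says nothing beyond the choice. Ordered from the most negative mean JAK difference of all genes, Urah (−1.78) stood at place 7, Hal (−1.58) at 12, Slc52a3 (−1.20) at 17 and Upp1 (−1.16) at 20. The median mean difference over all genes was 0.01. With an offset of 50 in the background correction 2 of the 4 genes stayed at least 2-fold lower in both backgrounds, without background correction 1, and with the authors' value table (on log2 values with 16 added) 3.

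**Figure D2:**
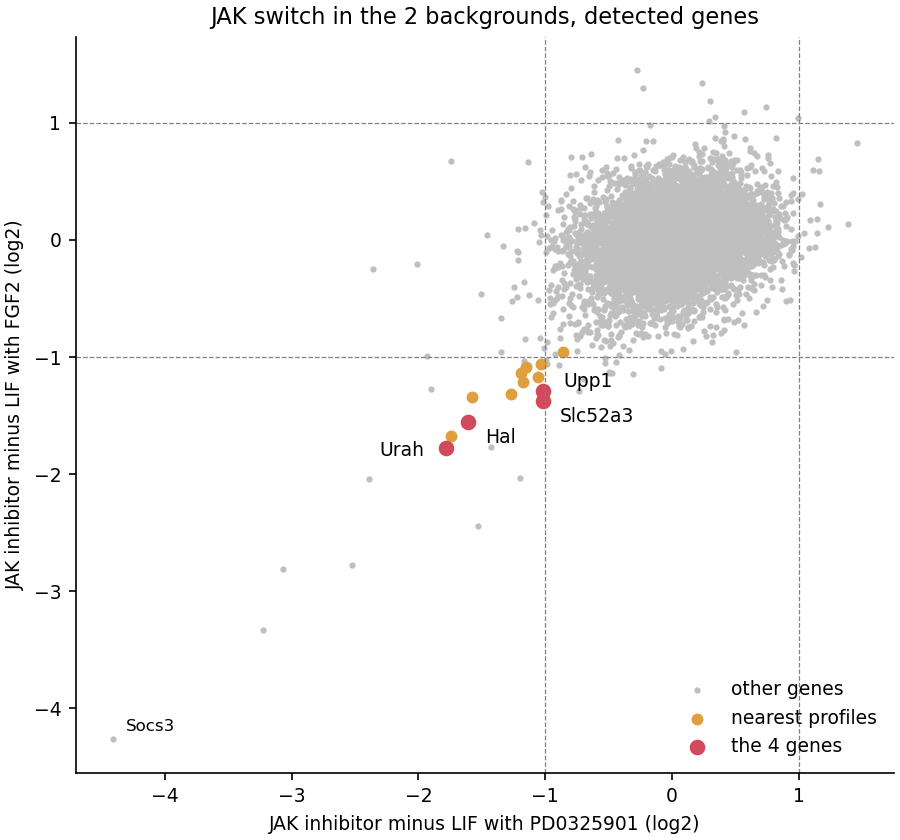
JAK inhibitor minus LIF with PD0325901 (x axis, log2) against the same with FGF2 (y axis, log2) for 8341 detected genes, with dashed lines at 2-fold. The 4 genes (red) lie below −1 on both axes, among the genes with the nearest profiles (orange), while Socs3 stands at −4.41 and −4.27.

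The second factor, FGF2 against PD0325901, was not used to choose the genes, and it was tested with a limma fit across 8341 genes in which both factors add. The fit takes its error from the departure from additivity, with 1 residual degree of freedom. The same error entered the JAK calls behind the choice of the genes, so these p-values are not fully independent of it. None of the 4 genes passed an adjusted p of 0.05 and 1, Upp1, had an unadjusted p below 0.05, where 20 of all genes (0.24%) passed the former and 963 (11.5%) the latter.

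Upp1 had the largest value of the 4, a log2 difference of −0.52 ± 0.16 (SE; 95% interval −0.89 to −0.15; limma unadjusted p = 0.0121, adjusted p = 0.309). After normalization it was lower with FGF2 in both backgrounds on all 3 probes, while the scanner signal of ILMN_2959293 with the JAK inhibitor was 435 with PD0325901 and 445 with FGF2. With LIF the differences were −0.38 ± 0.07 (bead SE), −0.55 ± 0.10 and −0.54 ± 0.10, and with the JAK inhibitor −0.66 ± 0.11, −0.64 ± 0.12 and −0.50 ± 0.12. Each was about 4.1 times its bead error or more, and 4.35% of all genes had a mean FGF2 difference at least as far from 0. The summed fibroblast marker signal given above was also lower with FGF2 in both backgrounds, and its part in the Upp1 difference was not tested. Upp1 passed the adjusted limma test with 3 of 10 other settings. These were without background correction (adjusted p = 0.00032), with an offset of 50 (0.00414) and with an intensity trend in the limma prior (6.93e-06). In the same settings 400, 320 and 360 of all genes passed, against 20 as reported. The prior degrees of freedom of the fit were infinite in all of them, against 7.01 as reported. Over the 10 settings the limma adjusted p of Upp1 ranged from 6.93e-06 to 0.503. Without normalization the Upp1 difference was −0.23 (adjusted p = 0.503) and with median scaling −0.32 (0.371), where the median of all genes stood at 0.28 and 0.20. Relative to that median Upp1 stood at −0.51 in both, as in the reported processing (−0.51).

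The other genes had smaller values. Urah had 0.25 ± 0.15 (SE of the limma fit; 95% interval −0.11 to 0.60; adjusted p = 0.555), from 0.24 ± 0.12 (bead SE) with LIF and 0.25 ± 0.13 with the JAK inhibitor. Hal had −0.21 ± 0.15 (interval −0.56 to 0.15; limma adjusted p = 0.618), from −0.23 ± 0.14 and −0.18 ± 0.24, and stood at 0.015 without normalization between arrays and −0.07 with median scaling. Slc52a3 had 0.09 ± 0.17 (interval −0.29 to 0.47; limma adjusted p = 0.861), from 0.27 ± 0.13 with LIF and −0.09 ± 0.17 with the JAK inhibitor. Without normalization Urah stood at 0.56 and Slc52a3 at 0.38, and with median scaling at 0.48 and 0.29, with limma adjusted p from 0.119 to 0.404. Relative to the median of all genes both settings gave −0.26 for Hal, 0.29 for Urah and 0.10 for Slc52a3. For Hal in both backgrounds, for Urah with the JAK inhibitor and for Slc52a3 with the JAK inhibitor, the difference between FGF2 and PD0325901 was under 2 bead standard errors. Bead error is technical, and the spread between cultures is not known.

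**Figure D3:**
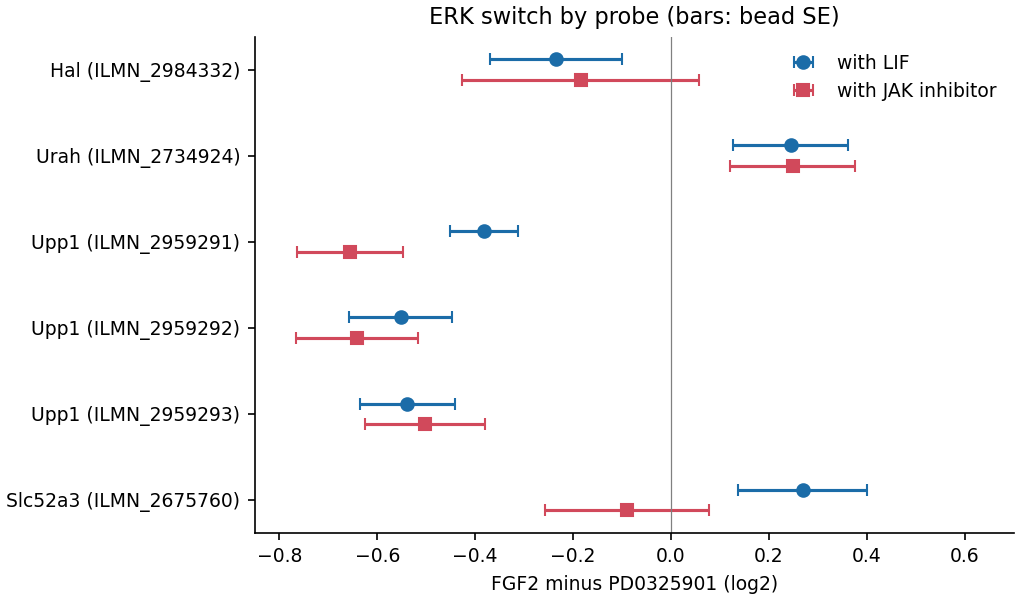
FGF2 minus PD0325901 (x axis, log2) for each of the 6 probes, with LIF (blue circles) and with the JAK inhibitor (red squares); bars are bead standard errors. The 3 Upp1 probes lie between −0.66 and −0.38, and those of Hal, Urah and Slc52a3 between −0.23 and 0.27.

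The departure from additivity, the FGF2 difference with the JAK inhibitor minus that with LIF, has no error between arrays in this design. It was 0.0044 ± 0.17 (bead SE) for Urah and 0.05 ± 0.28 for Hal, which 98.8% and 88.3% of all genes reached or passed in size. The JAK calls behind the choice of the genes used this departure as their error, which favours small departures. The shares in this paragraph therefore describe the chosen genes only. In this processing Urah and Hal had JAK differences of nearly equal size in both backgrounds. Without normalization their departures were 0.24 and 0.15, and with median scaling 0.14 and 0.04. Upp1 stood at −0.27 ± 0.13 (bead SE) on its brightest probe, but at −0.09 ± 0.16 and 0.04 ± 0.16 on the others. Slc52a3 had the largest departure, −0.36 ± 0.21, which 31.5% of all genes reached.

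The genes around Hal in histidine breakdown were mostly not detected. Neither Uroc1 (1 probe), urocanase, nor Ftcd (2 probes), which passes the one-carbon unit to folate, was detected on any array, and Amdhd1 was not analysed here. Hdc, which turns histidine into histamine, was detected with FGF2 and LIF only, with a mean JAK difference of −0.43 (limma adjusted p = 0.471). Around Urah, Uox (2 probes) and the urate-forming enzyme Xdh (1 probe) were not detected on any array, and Urad was detected only with PD0325901 and the JAK inhibitor, at a detection p of 0.00877. Of the 12 detected genes of purine breakdown and salvage besides Urah, 0 passed the limma test for the JAK switch, and 2, Ada (−0.41), adenosine deaminase, and Aprt (−0.37), which salvages adenine, were lower at unadjusted p below 0.05, where 0.288% of all genes passed the test and 10.6% had such a p in either direction. The median of the 12 was −0.04.

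For Upp1, none of the 4 probes of its paralogue Upp2 was detected on any array, and Tymp and Cda were not analysed here. Dpyd, which starts the breakdown of uracil, was not detected on any array. The uridine kinases were detected. Uck2 had a mean JAK difference of −0.16 (−0.15 and −0.18 on its other probes), and Uck1 had 0.06, with −0.45, −0.13 and −0.14 on its other probes, the last of which was detected on 2 arrays. Uckl1 was not detected. The 12 detected genes of uridine salvage and pyrimidine breakdown besides Upp1 had a median of −0.06 and lay between −0.34 and 0.28, with 0 past the limma test and 0 at unadjusted p below 0.05. The 13 genes of pyrimidine synthesis lay between −0.25 and 0.23, again with 0 past the test and 0 at unadjusted p below 0.05.

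For Slc52a3, Rfk (1 probe) and the mitochondrial FAD carrier Slc25a32 (2 probes) were not detected on any array, and the paralogue Slc52a2 was not analysed here. Flad1, FAD synthetase, had on the detected 1 of its 2 probes a mean JAK difference of −0.04 (limma adjusted p = 0.951). Among 20 detected flavoenzymes, which carry FMN or FAD, 0 passed the limma test and 1 was higher at unadjusted p below 0.05, Acadl (0.40), a dehydrogenase of fatty acid oxidation. Their median was −0.03, with 6 lower and 5 higher in both backgrounds.

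Over all 8 pathway lists, 88 genes besides the 4 were detected of 134. Of these 0 passed the adjusted limma test for the JAK switch and 0 for FGF2, and 24 of all genes (0.288%) passed for the JAK switch. At an unadjusted p below 0.05 stood 7 of the 88 for the JAK switch and 9 for FGF2, where 10.6% and 11.5% of all genes did. The lowest mean JAK difference among them was −0.48, at Amt of the glycine cleavage system, which was detected on 1 array. Mthfd2, a mitochondrial enzyme of folate metabolism, was the only one of the 88 whose 2 JAK differences shared a sign and both reached 1.5-fold, where 1.08% of all genes did so. It was higher with the inhibitor by 0.62 with PD0325901 and 0.79 with FGF2 (limma adjusted p = 0.228). For FGF2 the same rule held for 0 of the 88, against 1.27% of all genes. The number past the test for the JAK switch depended on the setting, with 5 genes with an intensity trend, 2 without background correction, 1 with median scaling and 1 with an offset of 50; Mthfd2 was among them in each. These are 5.68%, 2.27%, 1.14% and 1.14% of the 88, where 3.55%, 4.15%, 1.13% and 3.26% of all genes passed in the same settings.

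**Figure D4:**
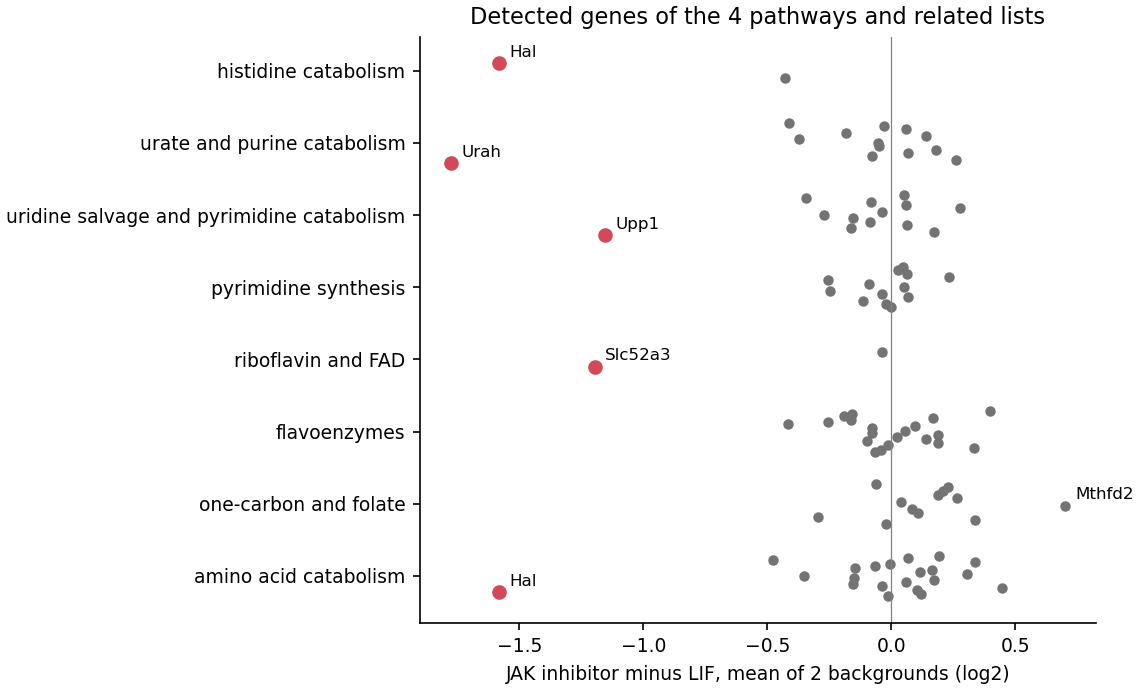
Mean log2 difference between JAK inhibitor and LIF over both backgrounds (x axis) for the detected genes of 8 pathway lists (y axis); each point is a gene, and a gene in more than 1 list is drawn in each. Hal, Urah, Upp1 and Slc52a3 (red) lie between −1.78 and −1.16, and the other genes (grey) between −0.48 and 0.70.

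The genes with the most similar profiles were sought by the root mean square difference of log2 values centred per gene, over the 4 arrays and 8341 genes. For Hal they were Icam1 (0.11), the Ras-family GTPase gene Mras (0.18) and Prr13 (0.21). For Urah the nearest was Stat3 (0.14), the LIF-activated factor itself, which had JAK differences of −1.74 and −1.68 and an FGF2 mean of 0.51, followed by Icam1 (0.23) and Hal (0.25). These Stat3 values are from its brightest probe. Probe ILMN_2589790 had JAK differences of −1.37 and −1.57 and an FGF2 mean of 0.48. Probe ILMN_3096144 differed more, with −0.81 and −1.18 and an FGF2 mean of −0.04. For Upp1 the nearest genes were Hspb8 (0.09), a small heat shock protein gene, Spats1 (0.10) and Serping1 (0.13), which encodes an inhibitor of complement C1. These 3 were also lower with FGF2, by mean log2 differences of −0.59, −0.34 and −0.56. For Slc52a3 they were Tdgf1 (0.08), the gene of Cripto, a co-receptor for Nodal, Mras (0.10) and the kinase gene Sgk1 (0.11). Among the 4 genes themselves, the difference was smallest between Hal and Urah (0.25) and largest between Urah and Upp1 (0.50). With 4 values per gene, such a likeness describes these arrays only.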

How the data were processed

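Each deposited array table held, per the file headers, a bead signal with its bead standard error, in units of intensity, and a detection p-value. The submitters' processing notes name BeadStudio, without a version. The authors' deposited value table held whole-number intensities with a median of 71 on every array; the sources used here do not state its normalization.

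With limma 3.58.1 in R 4.3.3, signals were background-corrected (nec with detection p-values, offset 16), quantile-normalized over 4 arrays and taken as log2. Probes detected at p below 0.01 on at least 1 array (12089 of 25697) were kept, the brightest standing for its gene (8341 genes). Symbols came from the platform annotation and RefSeq (GRCm38.p6); 23978 probes had 1 symbol, 0 several and 1719 none. Bead errors were carried to the log2 scale to first order. FGF2 was tested with lmFit and eBayes with both factors additive (7.01 prior degrees of freedom) and Benjamini-Hochberg adjustment over all genes, after tests on simulated data. With 1 array per condition, p-values measure the spread of these arrays only.

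The genes, pathway and marker lists and alternatives were chosen with earlier results of these data known. Named are the 4 genes, their pathway neighbours, list genes 1.5-fold or more in 1 direction in each background, the 3 nearest profiles of each and checks of the switches; Tdh was not analysed here. Genes named for an unadjusted p, and Amt for its low value, were named after their values were seen.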

Additional observations from a re-analysis of the deposited data

Results flagged for a closer look

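Some named genes differed in opposite directions in the 2 backgrounds of 1 switch. With 1 array per condition, none of these differences was tested. For FGF2 minus PD0325901, Slc52a3 stood at a log2 difference of 0.27 with LIF and −0.09 with the JAK inhibitor, where the latter was under its bead error. Its scanner signal did not change direction. It was higher with FGF2 both with LIF (237 against 190.5) and with the JAK inhibitor (144 against 121). On the normalized log2 scale Mthfd2 stood at −0.063 with LIF and 0.11 with the JAK inhibitor. Icam1 stood at −0.19 and 0.05, and Mras at 0.036 and −0.015, in the same order. For JAK inhibitor minus LIF, Urad stood at 0.53 with PD0325901 and −0.0075 with FGF2, being detected on 1 array only. Uck1 stood at −0.049 and 0.18, Flad1 at −0.13 and 0.06, and Egr1, not detected with PD0325901 and the JAK inhibitor, at −0.67 and 0.14. The Uck1 probes were not alike in this. Probe ILMN_1226366 stood at −0.52 and −0.38, without a change of sign. Probes ILMN_2479666 (−0.39 and 0.13) and ILMN_2970429 (−0.63 and 0.35) did change sign.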

How the results depend on the processing

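Of 10 other settings, Upp1 kept its mean JAK difference within its fitted standard error in all (−1.20 to −1.12), and Hal, Urah and Slc52a3 did so in 8, all with the same sign. Some of these settings could not move the value, namely the detection filters and the intensity trend. For Hal, Urah and Slc52a3, with 1 probe each, averaging the detected probes of a gene could not either. The authors' value table was counted with 16 added to each value, the same constant as the reported offset. Without that constant its mean JAK differences were −2.33 for Hal, −1.91 for Urah, −1.43 for Slc52a3 and −1.13 for Upp1. Those of Hal and Slc52a3 lay outside the fitted standard error. The counts therefore overstate how far the value was probed. Without background correction Hal stood at −0.75, Urah at −1.39 and Slc52a3 at −0.72, and with an offset of 50 at −0.99, −1.54 and −0.89, where a larger constant is added to each signal. The genes at least 2-fold lower in both backgrounds were 11 and 15 in these settings, against 23. For FGF2, Hal stood at 0.015 in place of −0.21 without normalization, where the median of all genes moved to 0.28 (0.20 with median scaling, −0.01 as reported). The JAK median with FGF2 moved to 0.20 and 0.12 in these settings. Upp1 passed the test without background correction (−0.51), with an offset of 50 (−0.51) and with an intensity trend (−0.52). In these settings 400, 320 and 360 of all genes passed. The departure of Upp1 from additivity turned from −0.27 to 0.14 without normalization. The cause of these changes was not tested.

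The number of genes past the limma test moved widely. For FGF2 it was 20 as reported, 400 without background correction, 320 with an offset of 50, 444 without normalization, 438 with median scaling, 66 with detection p below 0.05, 60 with detection on all 4 arrays, 0 with no detection filter and 360 with an intensity trend. For the JAK switch it was 24, and 346, 272, 49, 94, 45, 47, 8 and 296 in that order. Pathway genes past the JAK test, counted in settings applied after seeing the data, were 2 without background correction, 1 with an offset of 50, 1 with median scaling, 5 with an intensity trend and 0 otherwise. For FGF2 they were 5, 3, 4 and 6 in that order, 4 without normalization and 0 otherwise. No paired analysis was possible because each condition had 1 array and the labels give no replicate numbers. The number of arrays limits every comparison, and dim probes such as Hal have folds that depend on the background.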
